A study of Rattus norvegicus with 8 samples.

Results

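The genes Ptms and P3h3 lie near each other on rat chromosome 4, and they were examined together with 8 genes listed around them: Mlf2, Cops7a, Gnb3, Usp5, Tpi1, Eno2, Atn1 and Gpr162. The pair was chosen by its measured values, since both genes were lower in cannabis-exposed rats. The other 8 were listed as genes near them, and not every gene of the stretch was listed. Of the 10 listed genes, 6 had rows, with 17 of the 98356 alternative polyadenylation (APA) sites. Gnb3, Usp5, Tpi1 and Atn1 had no row under these symbols and were not analysed here. The question was whether the neighbours of Ptms and P3h3 changed with them.

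Whole transcriptome termini site sequencing (WTTS-Seq), which reads the 3′ ends of polyadenylated RNA, was applied to total RNA of the mediobasal hypothalamus of adult male Long-Evans rats. The 4 cannabis libraries came from rats exposed to vaporized cannabis (7.8% THC and 0.5% CBD) for 10 min, and the 4 control libraries from rats treated with air in the same manner. Tissue was collected 1 hr after exposure, each library came from 1 rat, and the labels name no transgene or deletion in either group. The cannabis libraries carry the replicate numbers 1, 2, 3 and 5.

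An APA site is a position where the transcript is cut and a poly(A) tail is added, and a gene can use several of them. Genes that sit next to each other can share a stretch of open chromatin or regulatory DNA, but most neighbours have promoters and 3′ ends of their own. Ptms encodes parathymosin, a small acidic nuclear protein related to prothymosin alpha, and P3h3 encodes prolyl 3-hydroxylase 3, a protein of the endoplasmic reticulum in the family that modifies prolines of collagen.

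In the RefSeq annotation of the GRCr8 build, the stretch from Atn1 to Cops7a held 18 genes, of which 15 were protein-coding, and 7 of these had rows in the files. The 7 were the 6 listed genes and Cd4. Going along the chromosome, the genes with rows stood in the order Eno2, P3h3, Gpr162, Cd4, Ptms, Mlf2 and Cops7a. No gene between Eno2 and P3h3 had a row under its symbol, so the neighbours nearest to P3h3 on that side could not be examined. Whether any of their sites are listed without a symbol or under another was not tested. Positions of 4 sites were known in the build of the files, Rnor_6.0. The P3h3 site lay at chr4:157359321-157359332 on the minus strand and was classed as distal. The most-read Ptms site lay at chr4:157436538-157436607 on the minus strand and was classed as extended exonic. The most-read Mlf2 site lay at chr4:157457206-157457488 on the plus strand and was classed as distal, and the most-read Cops7a site lay at chr4:157479891-157479981 on the minus strand and was classed as exonic.

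The promoters of Ptms and P3h3 are printed because these are the 2 genes that were lower after cannabis. Each run covers 300 bases, from 250 before to 50 after the annotated start, and was taken from RefSeq (GRCr8). Capitals mark matches to the GC box GGGCGG on either strand. The Ptms promoter lies at chr4:159412788-159413087 on the minus strand and the P3h3 promoter at chr4:159347955-159348254, also on the minus strand.
Ptms: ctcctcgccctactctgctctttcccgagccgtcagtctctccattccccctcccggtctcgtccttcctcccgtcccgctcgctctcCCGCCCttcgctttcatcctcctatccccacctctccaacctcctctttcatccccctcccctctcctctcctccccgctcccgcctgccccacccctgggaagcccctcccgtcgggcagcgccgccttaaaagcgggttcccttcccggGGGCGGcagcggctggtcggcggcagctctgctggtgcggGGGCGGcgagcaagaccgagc
P3h3: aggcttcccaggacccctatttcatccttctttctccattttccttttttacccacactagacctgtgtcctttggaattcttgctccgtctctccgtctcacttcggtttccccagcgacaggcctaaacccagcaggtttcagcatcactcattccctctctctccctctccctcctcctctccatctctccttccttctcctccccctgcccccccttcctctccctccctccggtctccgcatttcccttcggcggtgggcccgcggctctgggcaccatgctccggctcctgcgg
The Ptms window held 3 GC boxes, 26 CpG dinucleotides and 69.7% G or C. The P3h3 window held 0 GC boxes, 12 CpG dinucleotides and 59.0% G or C, against a median of 51.7% over the 33469 rat promoters of the same length. GGGCGG occurred on either strand in 33.1% of those promoters. The promoters of Mlf2, Cops7a and Eno2 held 2 GC boxes each and 69.0%, 65.3% and 70.7% G or C, respectively.

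The 8 libraries held 1159811 to 3706778 reads on sites, and 1 read was worth 0.664 to 1.99 normalized counts, the unit of every level given here. Each of the 8 hypothalamic markers had rows. Summed over those markers, the level was 2616 to 4964 in the air libraries and 6643 to 8786 in the cannabis libraries. Of the 8 genes, 1 was lower in cannabis. Avp and Oxt passed P under 0.01 as higher, beside 0.278% of all gene totals that passed in either direction. Summed over 6 markers of midbrain dopamine neurons, the level was 663 to 882 in air and 147 to 344 in cannabis, with 6 of 6 genes lower. Of these, Slc6a3, Th and En1 passed as lower. The study had listed Avp and Oxt, as well as Slc6a3, Th and En1, as changed on these same samples. Their passing here is therefore no independent result. Both sums were without overlap between the groups, but they include those listed genes, so this is no independent result either. Of all single gene totals, 1.98% were without overlap, and no such share was formed for sums of markers. The sum of 3 endothelial markers was also without overlap, at 81.1 to 88.0 in air and 93.0 to 115 in cannabis. Of those 3 genes, 1 was lower in cannabis and 0 passed by limma at P under 0.01. These sums moved with the same 2 groups as Ptms and P3h3, and their part in the differences of those genes was not tested. The sums of neuronal, astrocyte, oligodendrocyte, microglial, fibroblast and mural, and choroid plexus markers overlapped between the groups. Lower in cannabis were 5 of 5 neuronal, 4 of 4 oligodendrocyte, 2 of 4 astrocyte and 2 of 4 microglial markers. The same held for 2 of 3 fibroblast and mural markers and 0 of 2 choroid plexus markers with rows. In each of these lists 0 genes passed P under 0.01 by limma.

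Ptms had 4794 reads in all and was lower in every cannabis library than in any air library. Of all gene totals, 1.98% were without overlap between the groups in either direction. Its total over 4 sites was 1175, 613, 536 and 612 normalized counts in air replicates 1 to 4. In the cannabis libraries it was 338, 328, 310 and 375. Air replicate 1 stood well above its group, whereas the cannabis libraries lay close together. The means were 734 ± 296 in air and 338 ± 27.3 in cannabis (SD, n = 4), a ratio of air to cannabis of 2.17. Without air replicate 1 the ratio was 1.74, with an air mean of 587 ± 44.2. The log2 difference (cannabis minus air, on the log2(total + 1) scale) was −1.05 with an SE of 0.24. Because these values chose the gene, they are a description and were not tested. In bulk tissue, fewer cells of a type and less RNA per cell cannot be told apart.

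P3h3 was read at a single site. Its level was 108, 75.4, 56.4 and 133 normalized counts in air, from 148, 63, 84 and 67 reads. In cannabis replicates 1, 2, 3 and 5 it was 24.8, 5.31, 34.4 and 29.2, from 20, 8, 35 and 38 reads. Every cannabis library was below every air library, beside 1.98% of all gene totals without overlap, and cannabis replicate 2 was the lowest. The means were 93.3 ± 34.1 and 23.4 ± 12.7 (SD, n = 4), a ratio of air to cannabis of 3.98, and the log2 difference was −2.13 (SE 0.48). Without cannabis replicate 2 the log2 difference was −1.57. As with Ptms, these values chose the gene and carry no test.

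The lower Ptms total lay in its most-read site. That site held 972, 570, 484 and 546 normalized counts in air and 277, 271, 261 and 329 in cannabis, with no overlap, and its log2 difference was −1.12. It carried 88.8% ± 4.34 of the gene's counts in air and 84.1% ± 2.57 in cannabis (SD, n = 4). The 3 other sites were read far less and overlapped between the groups.

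Ptms site 2 held 121, 22.7, 14.8 and 19.9 normalized counts in air and 11.2, 13.9, 38.4 and 6.91 in cannabis. Air replicate 1 stood far above the rest, and the log2 difference went from −1.02 to −0.36 without that library. Ptms site 3 held 56.3, 4.79, 22.8 and 27.8 in air and 23.6, 6.64, 2.95 and 21.5 in cannabis. Its log2 difference was −0.94, and it was −1.58 without air replicate 2 and −0.43 without cannabis replicate 3. Ptms site 4 held 24.9, 15.6, 14.1 and 17.9 in air and 26.1, 36.5, 7.87 and 17.7 in cannabis, a log2 difference of 0.12 with all air libraries inside the cannabis range. Its share of the Ptms counts was 2.55% ± 0.334 in air and 6.53% ± 3.73 in cannabis, with cannabis replicate 3 at 2.54% within the air range. No share of a Ptms site was tested, since the gene's values chose it.

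**Figure D1:**
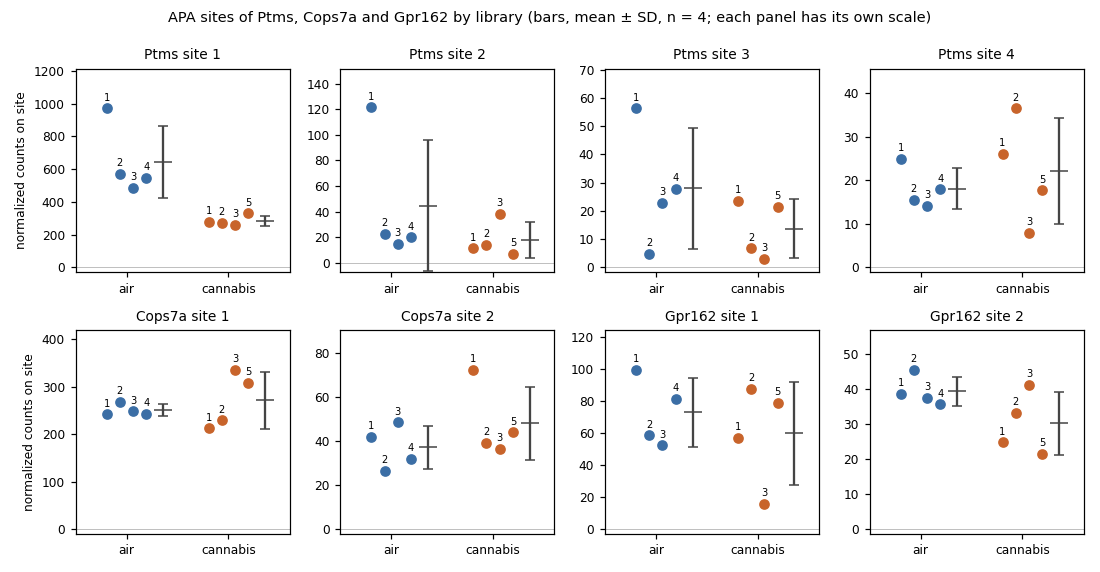
Normalized counts on the 4 Ptms sites and the 2 most-read sites of Cops7a and of Gpr162, 1 point per library numbered by replicate, with bars for the mean ± SD of the 4 libraries of a group and a scale of its own in each panel. Only Ptms site 1 shows groups that do not overlap, with 484 to 972 in air and 261 to 329 in cannabis.

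The 4 listed neighbours with rows did not pass the test. In a fit of all 18003 gene totals with limma, 0 of the 4 neighbours passed P under 0.01 and 0 of 4 passed P under 0.05, against 0.278% and 2.41% of all gene totals. In the fit of all 98356 sites, 0 of their 12 sites passed P under 0.01 and 0 of 12 passed P under 0.05, against 0.381% and 3.03% of all sites. edgeR and DESeq2 on the recovered reads also gave 0 at both levels for genes and for sites. None of the 4 neighbour totals was without overlap between the groups, against 1.98% of all gene totals, and none of the 12 sites was, against 2.0% of all sites. With 4 genes and 12 sites, counts of 0 are what these background shares give too, so they say little about the neighbourhood. The sizes of the single differences and their intervals are therefore given for each neighbour.

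Mlf2, which encodes myeloid leukemia factor 2, lay next to Ptms on the opposite strand. Its total was 131, 144, 322 and 103 normalized counts in air and 79.5, 250, 155 and 216 in cannabis. The groups overlapped, with air replicate 3 the highest and cannabis replicate 1 the lowest of the 8 libraries. The means were equal within the error, at 175 ± 99.6 and 175 ± 74.8 (SD, n = 4). The log2 difference was 0.02 (SE 0.39, 95% interval −0.81 to 0.85, limma adjusted p = 0.999; exact permutation p = 0.971). Mlf2 site 1 carried 98.7% of the gene's counts in air and 97.7% in cannabis (exact permutation p = 0.83).

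Cops7a encodes a subunit of the COP9 signalosome, which removes the ubiquitin-like protein Nedd8 from cullins. Its total was 287, 294, 297 and 274 normalized counts in air and 288, 268, 376 and 354 in cannabis. The air libraries were close together and the cannabis libraries spread on both sides of them. The means were 288 ± 10.2 and 322 ± 51.5 (SD, n = 4). The log2 difference was 0.15 (SE 0.19, 95% interval −0.26 to 0.55, limma adjusted p = 0.999; exact permutation p = 0.371). Cops7a site 1 differed by 0.09 (exact permutation p = 0.543) and site 2 by 0.35 (exact permutation p = 0.314) on the log2 scale. The share of site 1 was 86.8% ± 3.58 in air and 83.8% ± 6.87 in cannabis (exact permutation p = 0.571).

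Gpr162, an orphan G protein-coupled receptor gene, lay between P3h3 and Ptms. Its total was 147, 121, 105 and 137 normalized counts in air and 113, 141, 71.8 and 129 in cannabis. Cannabis replicate 3 was the lowest, and the other 3 cannabis libraries lay within the air range. The means were 127 ± 18.5 and 114 ± 30.3 (SD, n = 4). The log2 difference was −0.19 (SE 0.25, 95% interval −0.73 to 0.34, limma adjusted p = 0.999; exact permutation p = 0.543).

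Gpr162 had 6 sites, more than any other listed gene. Site 1 held 99.4, 58.7, 52.4 and 81.4 normalized counts in air and 57.1, 87.7, 15.7 and 79.1 in cannabis, with a log2 difference of −0.48 (exact permutation p = 0.543). Site 2 held 39.4 ± 4.25 in air and 30.2 ± 8.89 in cannabis (exact permutation p = 0.143), and site 4 held 5.46 ± 3.29 and 10.01 ± 6.58 (exact permutation p = 0.286). In cannabis replicate 3, site 1 took 21.9% of the gene's counts and site 2 took 57.5%, the reverse of their order in the other 7 libraries. The share of site 1 was 56.4% ± 8.93 in air and 48.9% ± 18.8 in cannabis (exact permutation p = 0.629).

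Eno2 encodes neuron-specific enolase, a glycolytic enzyme, yet only 28 reads fell on the 1 site under its symbol. It was listed at 10.2, 1.20, 2.69 and 0 normalized counts in air and at 1.24, 3.99, 1.97 and 0 in cannabis. Whether other sites of Eno2 are listed under another symbol was not tested, so these values may cover only some of its transcripts. Of the 28 reads, 14 came from air replicate 1. Only that library was above 4 normalized counts, and 3 reads were worth 1.99 to 5.96 normalized counts, so a difference at this site was not detectable. The fitted log2 difference was −0.36 with a 95% interval of −2.02 to 1.29 (exact permutation p = 0.743). On the recovered reads it was −1.12 with DESeq2 and −1.13 with edgeR, without passing P under 0.05 in either. The low sites of the other neighbours, Mlf2 site 2, Cops7a site 3 and Gpr162 sites 3, 5 and 6, had 17 to 70 reads over all libraries.

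**Figure D2:**
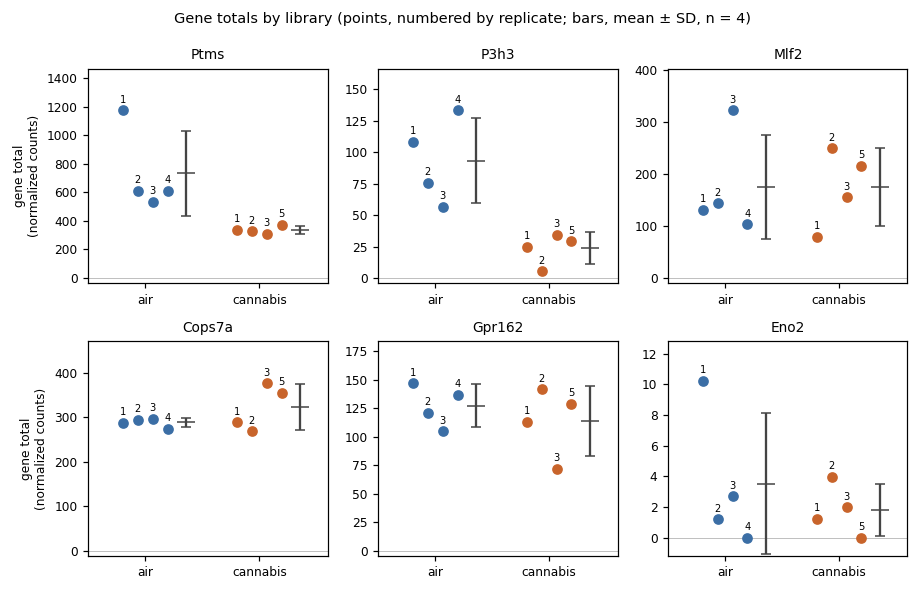
Gene totals in normalized counts of the 6 listed genes with rows, 1 point per library numbered by replicate, with bars for the mean ± SD of the 4 libraries of a group. Ptms and P3h3, whose values chose them, are without overlap between air and cannabis, and Mlf2, Cops7a, Gpr162 and Eno2 overlap.

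The neighbour totals had a median log2 difference of −0.09, with 2 higher and 2 lower, beside 0.05 over all gene totals. Their 12 sites had a median of 0.15, with 9 higher and 3 lower, beside 0.01 over all sites. The 6 of these sites with a mean of at least 10 normalized counts in a group had a median of 0.05, with 4 higher and 2 lower. Cd4, a T cell surface receptor gene between Gpr162 and Ptms, held 15.8 ± 5.68 in air and 19.9 ± 6.01 in cannabis (SD, n = 4), a log2 difference of 0.33. A further 28 genes were listed within this stretch, such as Cd4, or beyond its ends on both sides, of which 27 were on chromosome 4 in RefSeq. Of the 28, 22 had rows, and 0 passed P under 0.01 by limma, beside 0.278% of all gene totals. At P under 0.05 there was 1, beside 2.41% of all gene totals. It was C1rl, named after its values were seen, at 0.934 ± 1.16 in air and 4.15 ± 1.20 in cannabis (log2 difference 1.59, limma adjusted p = 0.999), levels near the worth of 3 reads. C1rl was also the only one of the 22 without overlap between the groups, beside 1.98% of all gene totals. In these 22 genes the log2 differences ran from −0.29 for Gapdh to 1.59, with 14 higher, 8 lower and a median of 0.17.

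**Figure D3:**
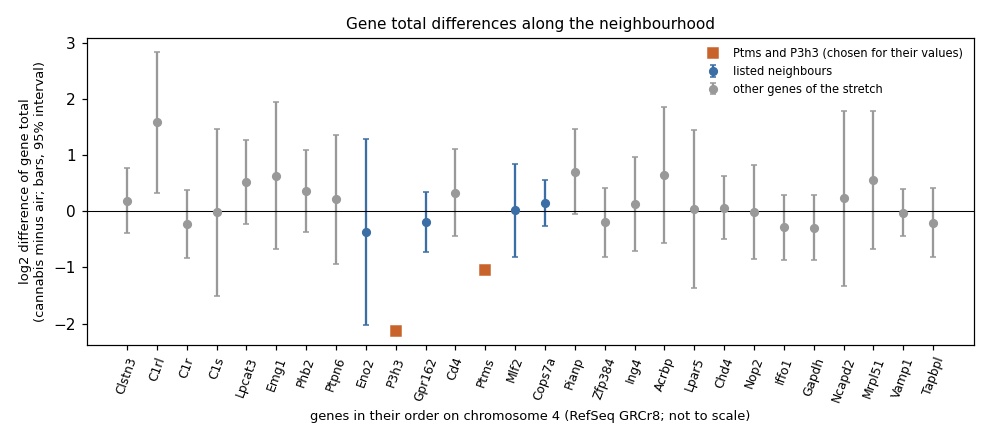
Log2 difference of the gene total (cannabis minus air) for the 28 genes with rows, in their order on RefSeq GRCr8 chromosome 4 and not to scale, with bars for the 95% interval of the limma fit. Ptms (−1.05) and P3h3 (−2.13) are squares without bars, since they were not tested, and the next lowest gene is Eno2 at −0.36.

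Genes related to the listed ones by function were taken from lists of their families and pathways. Of the prolyl 3-hydroxylase family and its partners other than P3h3, 4 of 5 had rows, and the log2 differences were 0.13 for P3h1, 0.14 for P3h2, −0.12 for P3h4 and 0.05 for Ppib, a cyclophilin that works with them. Ptma, which encodes prothymosin alpha, held 109 ± 58.5 in air and 87.9 ± 51.8 in cannabis (SD, n = 4), a log2 difference of −0.30. The 9 other COP9 signalosome genes ran from −0.20 (Cops6) to 0.41 (Gps1) with a median of 0.23. The 4 other G protein beta subunit genes ran from −0.30 (Gnb5) to 0.42 (Gnb2) with a median of 0.28. The 14 glycolysis genes beside Eno2 and Tpi1 had 7 higher and 7 lower, from −0.97 for Pkm to 0.47 for Eno1, with a median of −0.01. In each of these lists, 0 genes passed P under 0.01 and 0 passed P under 0.05 by limma, beside 0.278% and 2.41% of all gene totals, and lists of this size would mostly hold 0 at those shares.

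Co-variation over libraries was examined after the mean of each group had been removed, because Ptms and P3h3 were chosen for their group difference. On the log2 scale, the largest deviations were +0.75 for Ptms in air replicate 1 and −1.69 for P3h3 in cannabis replicate 2. Mlf2 deviated by 1.02 in air replicate 3 and by −1.01 in cannabis replicate 1, and Cops7a stayed within −0.25 to 0.24. Libraries were permuted exactly within groups, and the smallest p this can give is 0.00174. Where 2 libraries were left out, the deviations kept the means of all 4 libraries of a group. Such r values can therefore hold part of an offset between the groups. Where 1 library was left out, the group means were taken anew.

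The deviations of Ptms and P3h3 had a Pearson r of 0.23 (exact permutation p = 0.483, n = 8) and a Spearman rho of 0.10 (exact permutation p = 0.786). With the full group means kept, r was 0.26 without the 2 libraries farthest from the Ptms median. It was 0.43 without the 2 farthest from the P3h3 median, and neither is a purely within-group value. Leaving out 1 library at a time, with the means taken anew, gave r from 0.076 to 0.40. A co-variation of the 2 genes within the groups was not detectable with these 8 libraries.

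Of the neighbours, Gpr162 had the highest correlation with Ptms, at r = 0.46 (exact permutation p = 0.0729, n = 8) and rho = 0.57 (exact permutation p = 0.0538). It stood at the 89.7th percentile of the 9625 genes with a mean total of at least 20, and its adjusted p over those genes was 1. Leaving out air replicate 1 and cannabis replicate 3, with the full group means kept, gave r = 0.76, which is not a purely within-group value. With 1 library left out and the means taken anew, r was 0.35 to 0.66. For Mlf2 and Ptms, r was −0.26 and rho −0.26 (exact permutation p = 0.552 and 0.502, n = 8), with r = −0.24 without the 2 farthest libraries. For Cops7a and Ptms, r was −0.03 and rho −0.12 (exact permutation p = 0.880 and 0.688, n = 8), with r = −0.01 without them. The adjusted p was 1 for both.

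With P3h3, Cops7a had r = 0.63 and rho = 0.45 (exact permutation p = 0.215 and 0.424, n = 8, adjusted p = 0.682 for r). With the means taken anew, this relation rested on cannabis replicate 2, without which r was 0.03. Without the 2 libraries farthest from the P3h3 median, r of Cops7a was 0.37. Mlf2 had r = −0.59 and rho = −0.48 (exact permutation p = 0.172 and 0.245, n = 8, adjusted p = 0.656 for r), with r = −0.46 without the 2 libraries farthest from the P3h3 median. Gpr162 had r = −0.35 and rho = −0.29 (exact permutation p = 0.521 and 0.585, n = 8, adjusted p = 0.840 for r), with r = −0.02 without them. The r values without 2 libraries kept the full group means, so none of them is a purely within-group value. In all, 7 pairs were tested and none passed.

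**Figure D4:**
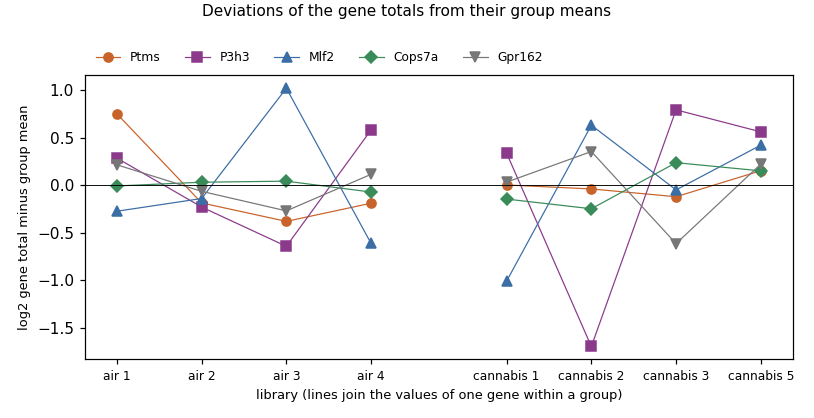
Deviation of log2(gene total + 1) from the group mean in each of the 8 libraries for Ptms, P3h3, Mlf2, Cops7a and Gpr162. Ptms is highest in air replicate 1 (0.75), where P3h3 (0.29) and Gpr162 (0.22) are also above their group means, and P3h3 is lowest in cannabis replicate 2 (−1.69), where Cops7a is at its lowest as well (−0.25) and Mlf2 (0.63) and Gpr162 (0.36) are above theirs.

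Over the 14 flanking genes with a mean total of at least 20, r with Ptms was positive for 11, with a median of 0.10 and a range of −0.41 to 0.53, beside a median of 0.04 over all 9625 genes. With P3h3 it was positive for 6 of 14, with a median of −0.05 and a range of −0.60 to 0.61, beside −0.21 over all genes. Among the neighbours themselves, r was 0.18 for Mlf2 and Cops7a, −0.05 for Mlf2 and Gpr162, and −0.67 for Cops7a and Gpr162, given without a test. These correlations share 8 libraries, and with them their depth.

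The 5 genes whose deviations were most like those of Ptms over the 8 libraries were LOC102554754 (r = 0.98), Matr3-ps1 (0.96), Cfdp1 (0.96), Arhgef12 (0.95) and Cwc27 (0.95). For P3h3 they were Ppig (0.98), Mns1 (0.97), LOC103692595 (0.96), Zfp469 (0.95) and RGD1559731 (0.95). In the same order, rho was 0.88, 0.71, 0.79, 0.79 and 0.90 with Ptms. With P3h3, rho was 0.95, 0.98, 0.90, 0.76 and 0.93. No listed or flanking gene was among these genes. Over the 9625 genes, 0 had an adjusted exact permutation p under 0.1 with either gene, and the unadjusted p was under 0.05 for 2.07% of genes with Ptms and 9.15% with P3h3.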

How the data were processed

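WTTS-Seq libraries of 4 air control and 4 cannabis rats were grouped by their labels. The values that the authors deposited are a signal per APA site, the normalized count (reads over the size factor that DESeq2 gave each library), 1 file per library, without pooling. The labels name the build Rnor_6.0. The aligned reads were not used here. In each library 100% of the values were whole multiples of 1 read within 0.01 reads, and reads were recovered from that step.

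Gene totals are sums over all sites with 1 symbol. Differences were fitted with limma 3.58.1 (eBayes with trend, R 4.3.3) on log2(value + 1), two-sided, over all sites or all symbols, with P under 0.01 as the level and Benjamini-Hochberg adjustment. A fold change on this scale understates that of low genes. Single values were compared by exact permutation tests, two-sided, with a smallest p of 0.0286 for 4 against 4. edgeR 4.0.16 and DESeq2 1.42.0 on recovered reads, 2 other pseudocounts (0.5 and 5), a minimum mean of 10, equal library totals, eBayes without trend, a replicate block and leaving out each library were the alternatives. The scripts were tested on simulated data.

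Sites are numbered by their reads over all libraries. All listed genes are named, with every site with a mean of at least 10 normalized counts in a group, the 5 genes most correlated with Ptms and with P3h3, and up to 4 genes of each list. The genes and lists were chosen with earlier results of these data known. Site positions were found by matching symbols and the 8 values to the site tables of the study, and promoters come from RefSeq (GRCr8), where 5 of the 6 genes matched. The 8 libraries were compared, and 0 pairs were identical.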

Additional observations from a re-analysis of the deposited data

Results flagged for a closer look

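In groups of 4 libraries, a library was marked when its gap to the nearest other, divided by the range of the group, was above Dixon's 95% critical value. Chance marks about 1 in 20 groups, and 2 of 32 groups examined were marked, both of Ptms and both in air replicate 1. The Ptms total of that library was 1175 normalized counts, against 536 to 613 in the other air libraries (gap over range 0.879). Ptms site 2 held 121 normalized counts in that library, against 14.8 to 22.7 in the others (gap over range 0.925). The cause was not tested.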

How the results depend on the processing

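The count of neighbour genes and of neighbour sites that passed stayed at 0 under each alternative, and Ptms and P3h3 stayed lower in cannabis, with log2 differences of −1.17 to −0.80 and −2.40 to −1.57 when 1 library was left out. For the ratio of air to cannabis, chosen after seeing the data, medians in place of means gave 1.84 for Ptms and 3.399 for P3h3, and leaving out air replicate 1 gave 1.74 and 3.77. Deviations of same-numbered air and cannabis libraries were barely correlated (3 pairs, r −0.16 to 0.04). Differently numbered libraries had r from −0.20 to 0.29. A pairing of the rats by number was not detected, but 3 pairs cannot exclude it. The replicate block gave −1.16 for Ptms, −2.12 for P3h3, −0.32 for the Mlf2 total and −0.35 for Mlf2 site 1, and counts of 0. In that fit air replicate 4 and cannabis replicate 5 had no partner, so its differences rested on the 3 same-numbered pairs.

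The direction of Mlf2 was not fixed: DESeq2 and edgeR gave −0.074 and −0.072 for the total, and DESeq2, edgeR and equal library totals gave −0.00690, −0.00135 and −0.011 for site 1. Leaving out 1 library gave ranges across 0 of −0.19 to 0.36 for the Mlf2 total, −0.21 to 0.36 for Mlf2 site 1, −0.91 to 0.26 for Eno2 (higher without air replicate 1 or cannabis replicate 5; −1.12 with DESeq2 and −1.13 with edgeR), −0.31 to 0.011 for Gpr162, −0.75 to 0.056 for Gpr162 site 1 and −0.018 to 0.20 for Cops7a site 1 (these 3 turned without cannabis replicate 3), and −0.18 to 0.51 for Ptms site 4 (lower without cannabis replicate 1 or 2). For the share of the most-read site the ranges were −1.54 to 0.421 percentage points for Mlf2 and −4.75 to 0.346 for Cops7a, which turned without cannabis replicate 1, and −11.8 to 1.54 for Gpr162, which turned without cannabis replicate 3.

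For co-variation with 1 library left out, r ranged from 0.076 to 0.40 for P3h3 with Ptms, −0.40 to 0.10 for Mlf2 with Ptms, −0.13 to 0.10 for Cops7a with Ptms and −0.54 to 0.23 for Gpr162 with P3h3. With the group means left in, r was −0.032 for Cops7a with P3h3, 0.058 for Gpr162 with P3h3 and 0.50 for Gpr162 with Ptms, values that include the group differences by which Ptms and P3h3 were chosen. Mlf2 with P3h3 had r = −0.63 without cannabis replicate 1 (exact permutation p = 0.0347, unadjusted). The causes of these changes were not tested. Eno2 fell under the minimum mean of 10, and the share of the most-read Mlf2 site could not be formed with 1 site left. Depth limits P3h3, with as few as 8 reads in a library, and Eno2.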
